A study of Mus musculus with 18 samples.

Results

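The response to 6-hydroxydopamine (6-OHDA) was compared between the substantia nigra and the striatum of the same study, gene by gene, as the log2 change in nigra minus the log2 change in striatum. The comparison used 12 of the 18 libraries of the series, 3 for each treatment in each tissue. Genes had to be listed in the count tables of both tissues, which held for 19401 genes out of 20897 in the nigra table and 20257 in the striatum table, and 18749 of them were abundant enough to be tested. Of these, 29 differed between the tissues (edgeR quasi-likelihood test of the interaction, Benjamini-Hochberg adjusted p under 0.05).

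All mice were wild type C57BL6. Control mice received 1x phosphate-buffered saline (PBS) into the striatum and PBS by intraperitoneal injection, and the 6-OHDA mice received 4 μg of 6-OHDA into the striatum and PBS by intraperitoneal injection. The labels give a time of 3 weeks for every group, so the injection into the striatum, the intraperitoneal PBS and the time are common to both groups. A further group of 6 libraries with 6-OHDA and the agonist TUG469 entered the filter, the scaling and the estimate of spread but not the comparison, and its values are given where named. The age and sex of the mice, the number of mice behind a library and the means of dissection are not given in the sources used here, so p-values measure the spread between these libraries, which may in part be technical.

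6-OHDA is a dopamine analogue that dopamine neurons take up through their transporter and that oxidises inside the cell, inhibiting mitochondrial respiration. Injected into the striatum it reaches the axon terminals of nigral dopamine neurons, whose cell bodies lie in the midbrain. The respiratory chain passes electrons through complexes I to IV of the inner mitochondrial membrane to oxygen, and complex V, the ATP synthase, uses the resulting proton gradient. Its subunits come from nuclear genes, with a few from the mitochondrial genome. Motile cilia in the brain are carried mainly by ependymal cells, which line the ventricles and move cerebrospinal fluid. Each such cilium is driven by axonemal dyneins, and Foxj1 and the RFX factors switch on its genes.

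Total counts in the 12 libraries ranged from 42242389 to 61933756. The tissue labels were borne out by regional markers. Drd1, the dopamine receptor of striatal projection neurons, stood between 221.1 and 289.1 CPM (read counts per gene divided by the TMM-adjusted library size and scaled to a fixed total) in striatal PBS libraries and between 3.25 and 5.95 CPM in nigral ones. Th, tyrosine hydroxylase, stood at 36.3, 24.1 and 33.8 CPM in nigral PBS libraries and at 7.47, 5.67 and 8.20 CPM in striatal ones. A loss of dopamine neuron transcripts was not seen. In nigral libraries labelled 6-OHDA, Th stood at 58.4, 40.3 and 47.5 CPM, above all PBS libraries. Slc6a3, the dopamine transporter, was listed for nigra only, with 54.5 ± 10.5 CPM in PBS and 51.8 ± 10.7 CPM in 6-OHDA libraries (mean ± SD, n = 3 each). In nigral libraries labelled 6-OHDA plus TUG469, Th was at 16.2 ± 4.02 CPM (n = 3), below both other groups. Ddc, which makes dopamine from L-DOPA, stood in nigra at 46.5 ± 6.88 CPM in PBS, 66.5 ± 20.4 CPM in libraries labelled 6-OHDA and 29.5 ± 15.9 CPM in those labelled 6-OHDA plus TUG469. Slc18a2, the vesicular monoamine transporter, had 46.8 ± 7.21 CPM in PBS, 84.1 ± 32.9 CPM with the 6-OHDA label and 25.4 ± 21.9 CPM with the TUG469 label (mean ± SD, n = 3 each). The means of Th, Ddc and Slc18a2 were thus below PBS with the agonist label and not with the label 6-OHDA alone. The spread with the agonist label was wide for Ddc and Slc18a2, and Slc6a3 was not read for that label here. Whether the labels of these groups were exchanged cannot be told from the sources used here, so every result below is for the libraries labelled 6-OHDA.

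In the 29 genes that differed, the direction in nigra was opposite to the direction in striatum in every case. Of these, 17 were higher in nigra and lower in striatum after 6-OHDA, and they were led by nuclear genes of the mitochondrial respiratory chain. The other 12 were lower in nigra and higher in striatum, and 5 of these are motile cilium genes of the list used here. The 29 genes are 0.155% of the genes tested, the upper group 0.0907% and the lower group 0.064%. At an unadjusted p under 0.05 the interaction took 2280 genes (12.2%), with 6.01% above and 6.15% below 0. A change of opposite sign was found in 52% of all genes tested, so the sign alone sets little apart. Over all genes, PBS and 6-OHDA libraries did not overlap in 20.2% of genes in nigra and 11.8% in striatum. They did not overlap in either tissue for 28 of the 29. Gm6548 was the exception, and its libraries overlapped in nigra. The 29 were chosen by a test on these same libraries, so their separation and opposite signs are not independent support. Over all genes, libraries separated fully in both tissues with nigra up and striatum down for 215 genes (1.15%), and with nigra down and striatum up for 150 genes (0.8%). Separation in the same direction was seen for 70 genes higher in both tissues (0.373%) and 71 lower in both (0.379%).

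Neither tissue taken alone gave many calls in that fit. In nigra no gene passed the adjusted threshold by edgeR, with 2158 genes (11.5%) at an unadjusted p under 0.05. There were 192 calls by DESeq2 and 671 by limma voom with sample weights. In striatum 2 genes passed (0.0107%), Gm6548 and Agt, with 1856 genes (9.9%) at an unadjusted p under 0.05. Calls in striatum numbered 218 by DESeq2 and 2 by limma voom with sample weights. The direction within a tissue is therefore given below as values, and the test refers to the difference between tissues. The median over all genes tested was −0.01 for that difference. Spearman's rho across genes between the changes in the tissues was −0.0572, a description over genes that share libraries and are not independent.

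The number of calls rested on single libraries. Leaving out 1 striatal library gave 8 calls without PBS 1, 19 without PBS 2, 78 without PBS 3, 18 without 6-OHDA 2, 47 without 6-OHDA 3 and 11 without 6-OHDA 4. Leaving out 1 nigral library gave 8 calls without PBS 1, 7 without PBS 2, 18 without PBS 3, 96 without 6-OHDA 2, 24 without 6-OHDA 3 and 8 without 6-OHDA 4. Leaving out a label in both tissues at once gave 0 calls by edgeR without PBS 1, PBS 2 or 6-OHDA 4, where 1590, 2069 and 1609 genes had an unadjusted p under 0.05. The same step gave 33 calls without PBS 3, 51 without 6-OHDA 2 and 17 without 6-OHDA 3. The split by direction moved too. It was 29 above and 67 below 0 without nigral 6-OHDA 2, and 29 above and 49 below without striatal PBS 3, beside 17 and 12 with every library. The sign of the difference held for all 29 genes in each of these fits. The fits reuse the libraries from which the 29 were chosen, so the kept sign is not independent support.

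**Figure D1:**
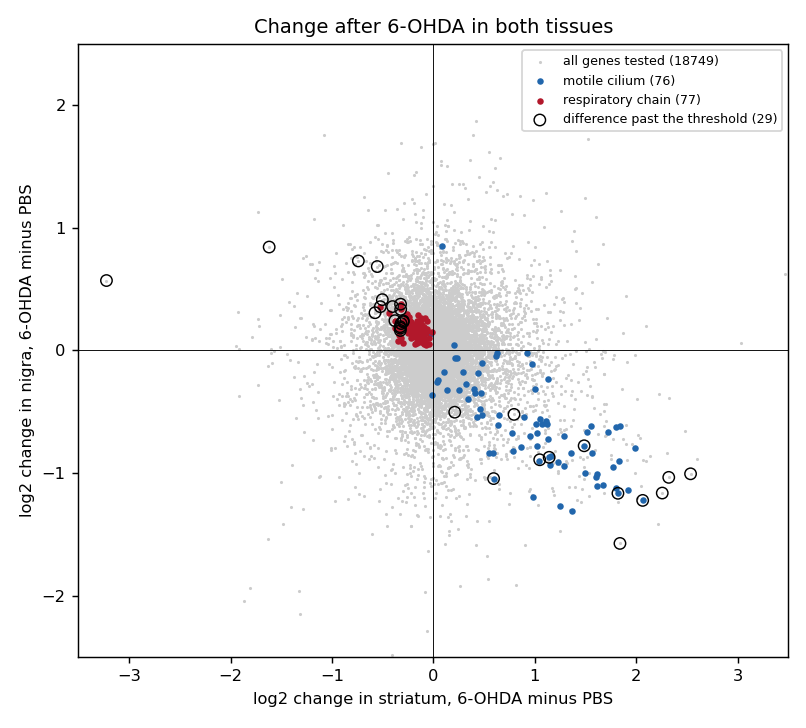
Each point is a gene, with its log2 change after 6-OHDA in striatum on the x axis and in nigra on the y axis; the 77 respiratory chain genes (red) all lie at the upper left and most of the 76 motile cilium genes (blue) in the lower right. Circles mark the 29 genes whose difference passed the threshold, and 4 genes lie outside the plotted range.

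Cytochrome c oxidase, complex IV, held the gene with the smallest p-value. Cox5a, a nuclear-encoded subunit (gene 12858, GRCm38 chromosome 9, 57517328 to 57532427), stood in nigra at 76.5, 78.6 and 83.5 CPM in PBS and 104.9, 95.4 and 109.5 CPM in 6-OHDA libraries. In striatum it stood at 71.9, 77.0 and 76.7 CPM in PBS and 59.6, 58.2 and 62.4 CPM in 6-OHDA libraries. The 6-OHDA libraries were all above PBS in nigra and all below PBS in striatum. The log2 change was 0.38 in nigra and −0.32 in striatum, a difference of 0.70 (SE 0.0878, edgeR adjusted p = 0.0112). Cox5b, the partner subunit that binds zinc (gene 12859, chromosome 1, 36691487 to 36693388), stood in nigra at 105.3, 117.6 and 111.4 CPM in PBS and 144.0, 131.0 and 153.1 CPM in 6-OHDA libraries. In striatum its PBS libraries held 180.0, 175.3 and 169.0 CPM and its 6-OHDA libraries 126.3, 126.7 and 111.8 CPM. The groups again separated in opposite directions, and the striatal 6-OHDA libraries lay near the level of nigral PBS. The difference was 0.88 (SE 0.12, edgeR adjusted p = 0.0127). Cox8a and Cox7c, small subunits of the same enzyme, differed by 0.62 and 0.49 with adjusted p-values of 0.0493 and 0.0456 by edgeR. Neither passed in a fit with a block for libraries of the same number in both tissues. Cox8a (gene 12868, chromosome 19, 7215158 to 7217616) was the most abundant of the called genes in striatum, at 277.3, 271.7 and 266.9 CPM in PBS and 233.2, 217.1 and 176.7 CPM in 6-OHDA libraries. In nigra it stood at 167.7, 162.9 and 167.1 CPM in PBS and 192.2, 195.4 and 201.3 CPM in 6-OHDA libraries. Striatal 6-OHDA library 4 held the lowest striatal value, and the groups did not overlap in either tissue.

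Complex I, which takes electrons from NADH, contributed 3 called genes, all accessory subunits. Ndufc2 (gene 68197, chromosome 7, 97400003 to 97407800) stood in nigra at 51.0, 47.8 and 49.8 CPM in PBS and 54.5, 55.7 and 59.8 CPM in 6-OHDA libraries. The striatal levels were 42.6, 42.4 and 46.1 CPM in PBS and 34.5, 36.5 and 33.4 CPM in 6-OHDA libraries. Its libraries separated in both tissues, more widely in striatum. The difference was 0.52 (SE 0.0767, edgeR adjusted p = 0.0139). Ndufab1, which also serves as the acyl carrier protein of mitochondrial fatty acid synthesis, differed by 0.66, from 0.33 in nigra and −0.32 in striatum. Ndufs6 differed by 0.51, from 0.18 and −0.33. Both had an adjusted p of 0.0493 by edgeR, and neither passed with the block for libraries of the same number.

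The ATP synthase contributed Atp5j, a subunit of its peripheral stalk known as coupling factor 6, and Atp5g3, a gene for the c subunit of its rotor ring. Atp5j stood in nigra at 94.1, 91.8 and 98.9 CPM in PBS and 101.6, 112.3 and 120.7 CPM in 6-OHDA libraries. In striatum it went from 107.9, 115.3 and 108.3 CPM in PBS to 86.9, 92.6 and 90.1 CPM in 6-OHDA libraries. No library of one group reached the other group in either tissue. The difference was 0.53 (SE 0.0889, edgeR adjusted p = 0.027). Atp5g3 differed by 0.54 (SE 0.0973, edgeR adjusted p = 0.0467), with log2 changes of 0.22 in nigra and −0.32 in striatum. It did not pass with the block for libraries of the same number.

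**Figure D2:**
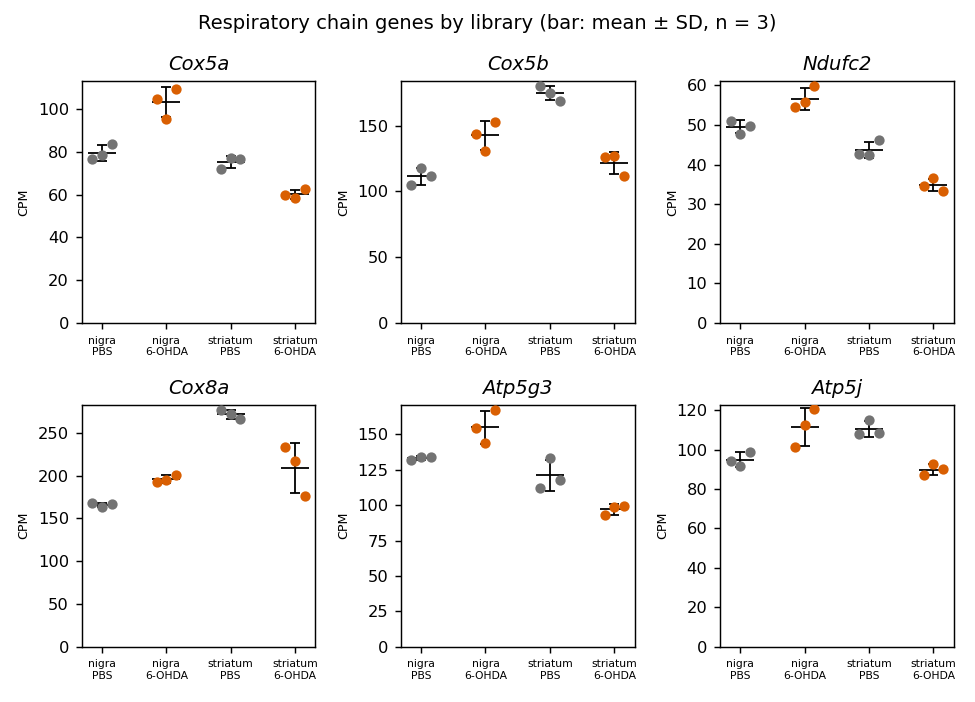
CPM (y axis, from 0) of 6 respiratory chain genes in each library by tissue and treatment (x axis), with points for libraries and bars for mean ± SD (n = 3). In all 6 genes the 6-OHDA libraries (orange) lie above the PBS libraries (grey) in nigra and below them in striatum.

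The wider respiratory chain list held 77 nuclear genes, all of them tested. In all 77 the log2 change was above 0 in nigra and below 0 in striatum, with a median of 0.18 and −0.18 and a median difference of 0.36, beside −0.01 over all genes. By edgeR 9 passed the adjusted threshold, all upward, beside 0.0907% of all genes. Of the 77, 28 separated fully in both tissues with nigra up and striatum down, beside 1.15% of all genes. By complex, the median difference was 0.36 for the 36 genes of complex I with 3 called, 0.24 for the 4 genes of complex II with 0 called, 0.44 for the 9 of complex III with 0 called, 0.45 for the 12 of complex IV with 4 called and 0.34 for the 16 of complex V with 2 called. In complexes II and III, 3 and 8 genes had an unadjusted p under 0.05 by edgeR, beside 12.2% of all genes. Uqcrfs1, the Rieske iron-sulphur protein of complex III, just missed the threshold with a difference of 0.51 (edgeR adjusted p = 0.0536). Small differences that did not pass were found in the large subunits Sdha (0.12), Ndufs1 (0.13) and Atp5a1 (0.15) and in Atp5g2 (0.10), named after their values were seen. Summed over the list, nigral PBS libraries held 8443 to 8678 CPM and nigral 6-OHDA libraries 9104 to 10110 CPM. Striatal PBS libraries held 8560 to 8765 CPM and striatal 6-OHDA libraries 7507 to 7854 CPM. In both tissues the summed levels of the groups did not overlap. The same held, in the same directions, for the mitochondrial ribosome and proteasome lists. Of the members, 14 were called without nigral 6-OHDA 2, beside 96 of all 18805 genes, 29 of them above 0. Called members numbered 0 when PBS 1, PBS 2 or 6-OHDA 4 was left out of both tissues, where 0 of all genes were called. The other fits that left out libraries lay between 0 and 14 called members. The members are short, with a median implied length of 878.8 bases. Of the 1876 shortest genes tested, up to 1161 bases, 52.0% were higher in nigra and lower in striatum. With the trend of the changes with transcript length removed, 1 of the 9 still passed and the median difference was 0.14. Several of these genes have processed pseudogene copies elsewhere in the genome, and the sources used here do not say how reads that match such copies were assigned.

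Of the other mitochondrial genes, those of the mitochondrial ribosome followed with smaller values. In 37 of 38 tested members the difference was above 0, with a median of 0.20. By edgeR 2 members passed, both upward, beside 0.0907% of all genes. Mrps24, of the small subunit (gene 64660, chromosome 11, 5703982 to 5707701), stood in nigra at 10.1, 10.7 and 11.3 CPM in PBS and 14.4, 13.3 and 15.1 CPM in 6-OHDA libraries. Its levels in striatum were 14.8, 15.7 and 15.6 CPM in PBS and 12.4, 11.5 and 8.67 CPM in 6-OHDA libraries. The tissues thus began apart, with striatum higher, and exchanged places in the 6-OHDA libraries. The difference was 0.92 (SE 0.149, edgeR adjusted p = 0.0239). Mrpl12, of the large subunit, differed by 0.54 (SE 0.101, edgeR adjusted p = 0.0493) and did not pass with the block for libraries of the same number. Of the 13 protein-coding genes of the mitochondrial genome, 12 had a difference above 0 with a median of 0.19. By edgeR 0 of them passed and 2 had an unadjusted p under 0.05, beside 12.2% of all genes. With the length trend removed the median was 0.06 for the mitochondrial ribosome, with 0 called by edgeR and 3 at an unadjusted p under 0.05, and −0.02 for the mitochondrial genome. The share of all counts that came from the mitochondrial genome was 7.27% to 8.64% in nigra and 9.94% to 11.5% in striatum.

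Promoter sequence was inspected because nuclear respiratory genes are known targets of nuclear respiratory factor 1 (NRF1). RefSeq promoters on GRCm38.p6, from 250 bases before to 50 bases after a start site, were matched for 13596 of the 18749 genes tested. The NRF1 motif, GCGCA and GCGC with any base between them, searched on both strands, was present in 18 of 65 respiratory chain promoters (27.7%) and in 9.53% of all promoters. Among called genes with the higher change in nigra it was present in 3 of 16 promoters, those of Atp5g3, Ndufs6 and Mrpl12. The promoters of Cox5a (plus strand, chr9:57520982-57521281), the respiratory gene with the smallest p, and Ndufs6 (minus strand, chr13:73328433-73328732), chosen afterwards because it holds the motif, are shown 5′ to 3′ with the motif in capitals.
Cox5a: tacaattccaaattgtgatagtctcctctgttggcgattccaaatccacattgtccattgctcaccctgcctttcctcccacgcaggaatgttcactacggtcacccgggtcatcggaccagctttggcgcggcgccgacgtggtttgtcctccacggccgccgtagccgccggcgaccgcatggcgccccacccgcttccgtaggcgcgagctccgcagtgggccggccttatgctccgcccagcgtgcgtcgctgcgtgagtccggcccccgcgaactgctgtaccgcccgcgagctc
Ndufs6: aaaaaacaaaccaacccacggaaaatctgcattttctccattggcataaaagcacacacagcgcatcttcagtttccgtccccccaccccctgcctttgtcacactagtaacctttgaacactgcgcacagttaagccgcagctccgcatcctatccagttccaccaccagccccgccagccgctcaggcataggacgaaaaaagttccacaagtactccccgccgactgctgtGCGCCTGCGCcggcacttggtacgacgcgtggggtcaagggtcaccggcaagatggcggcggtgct
The match in Ndufs6 is on the opposite strand, from base −16 to base −7 relative to the start. The Cox5a window holds none of the searched motifs.

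Among the called genes outside the mitochondrial lists, 6 had the higher change in nigra. Nrtn encodes neurturin, a ligand of the GDNF family that supports dopamine neurons (gene 18188, chromosome 17, 56751323 to 56757548). It stood in nigra at 1.05, 0.898 and 1.27 CPM in PBS and 2.29, 1.63 and 1.87 CPM in 6-OHDA libraries. In striatum it stood at 3.16, 5.67 and 2.36 CPM in PBS and 1.36, 1.23 and 1.02 CPM in 6-OHDA libraries. Groups separated in both tissues at a low level, with a wide spread in striatal PBS where library 2 was highest. The difference was 2.46 (SE 0.422, edgeR adjusted p = 0.0303).

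Ier5l, a relative of the immediate early response gene Ier5 (gene 72500, chromosome 2, 30472631 to 30474199), stood in nigra at 3.96, 4.12 and 4.82 CPM in PBS and 8.43, 6.13 and 6.21 CPM in 6-OHDA libraries. The striatal levels were 17.97, 16.04 and 18.31 CPM in PBS and 11.1, 13.1 and 11.5 CPM in 6-OHDA libraries. The striatal level stayed above the nigral one in every library. The difference was 1.24 (SE 0.192, edgeR adjusted p = 0.0172). Ccdc85b, a coiled-coil protein, differed by 0.88 and Trir, an RNase that interacts with telomerase RNA, by 0.76, both with an adjusted p of 0.027 by edgeR. Gm1673, named with no role, differed by 1.47 (edgeR adjusted p = 0.0493).

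Gm6548, a transcribed pseudogene (gene 625054, chromosome 17, 78850504 to 78852544), had the largest positive difference of the called genes, 3.79 (SE 0.536, edgeR adjusted p = 0.0127). It stood in striatum at 2.45, 2.11 and 1.41 CPM in PBS and 0.108, 0.358 and 0.161 CPM in 6-OHDA libraries. In nigra it stood at 1.61, 2.5 and 1.54 CPM in PBS and 2.98, 2.21 and 3.21 CPM in 6-OHDA libraries. The striatal groups lay far apart while the nigral groups overlapped. Its span overlaps that of Eif2ak2, and reads shared with a parent gene or with the overlapping gene cannot be told apart here.

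The motile cilium genes had the opposite pattern. The list held 78 genes, of which 76 were tested, since Cfap221 and Stoml3 were not listed in both tables. In 74 of the 76 the difference was below 0, with a median of −1.65 beside −0.01 over all genes, and the median change was −0.62 in nigra and 1.01 in striatum. By edgeR 5 passed the adjusted threshold, all downward, beside 0.064% of all genes. Of the 76, 26 separated fully in both tissues with nigra down and striatum up, beside 0.8% of all genes. The exceptions, named after their values were seen, were Mcidas (0.77) and Lrrc6 (0.17), which did not pass.

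Dnah11, a heavy chain of the outer dynein arm (gene 13411, chromosome 12, 117877982 to 118199043), stood in nigra at 4.37, 4.74 and 3.87 CPM in PBS and 2.54, 1.505 and 1.74 CPM in 6-OHDA libraries. Its levels in striatum were 0.588, 1.12 and 0.727 CPM in PBS and 3.07, 2.23 and 3.19 CPM in 6-OHDA libraries. Nigral PBS libraries held the highest values and striatal PBS libraries the lowest, and the 6-OHDA libraries of both tissues lay between them. The log2 change was −1.17 in nigra and 1.82 in striatum, a difference of −2.99 (SE 0.422, edgeR adjusted p = 0.0127). Dnah5, another outer arm heavy chain, differed by −2.01 (SE 0.362, edgeR adjusted p = 0.0456). All 11 heavy chain genes of the list had a difference below 0, with a median of −2.01.

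Maats1, a radial spoke component also known as Cfap91 (gene 320214, chromosome 16, 38297754 to 38341860), stood in nigra at 3.19, 3.504 and 3.90 CPM in PBS and 2.42, 1.41 and 0.726 CPM in 6-OHDA libraries. In striatum it stood at 0.627, 0.546 and 1.07 CPM in PBS and 3.07, 3.07 and 3.33 CPM in 6-OHDA libraries. The striatal 6-OHDA libraries lay close together near the level of nigral PBS, and the nigral 6-OHDA libraries were spread out below it. The difference was −3.29 (SE 0.498, edgeR adjusted p = 0.0171). Cfap54, of the central apparatus, stood in nigra at 9.60, 11.8 and 8.09 CPM in PBS and 5.49, 4.04 and 4.75 CPM in 6-OHDA libraries. The striatal levels were 3.84, 4.53 and 4.87 CPM in PBS and 6.62, 6.37 and 6.96 CPM in 6-OHDA libraries. For this gene the larger part of the difference of −1.64 (SE 0.261, edgeR adjusted p = 0.0216) lay in nigra, where the change was −1.05 against 0.59 in striatum. Vwa3a, a protein with a von Willebrand factor domain, stood in nigra at 7.75, 6.81 and 7.35 CPM in PBS and 5.87, 3.41 and 3.52 CPM in 6-OHDA libraries. Its levels in striatum were 3.53, 2.31 and 2.69 CPM in PBS and 9.02, 7.51 and 7.46 CPM in 6-OHDA libraries. Here the striatal part, 1.49, was the larger, and the difference was −2.27 (SE 0.349, edgeR adjusted p = 0.0172).

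**Figure D3:**
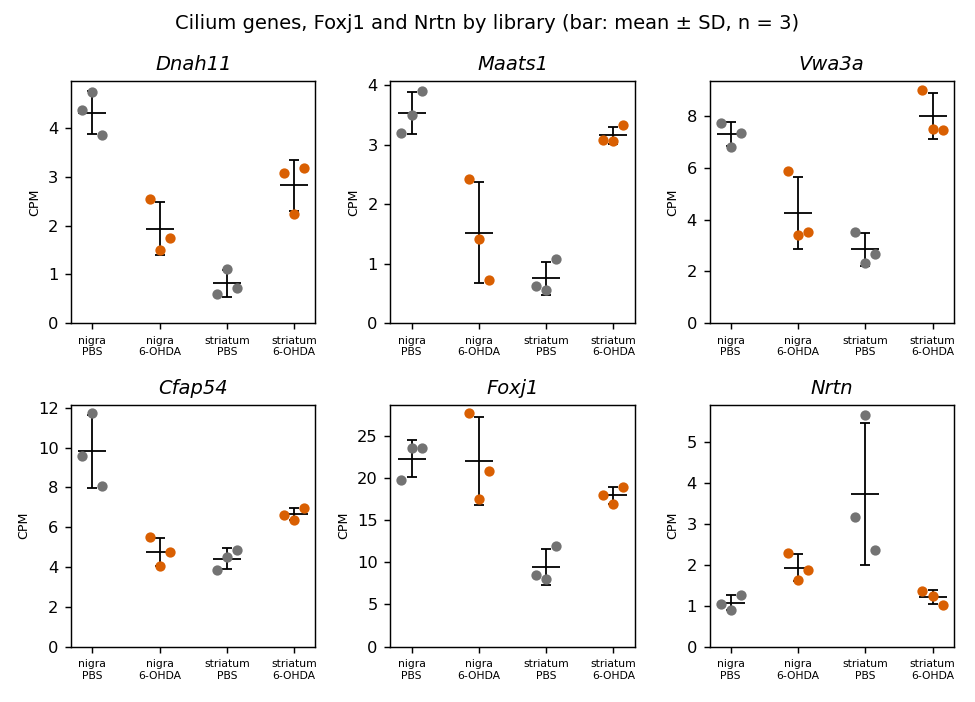
CPM (y axis, from 0) of 4 called motile cilium genes, Foxj1 and Nrtn in each library by tissue and treatment (x axis), with points for libraries and bars for mean ± SD (n = 3). Dnah11, Maats1, Vwa3a and Cfap54 are lower in nigra and higher in striatum in the 6-OHDA libraries (orange) than in PBS (grey), Nrtn has the reverse order, and Foxj1 overlaps in nigra.

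By part of the cilium, the median difference was −2.06 for the 26 other axonemal or ependymal genes, −1.82 for the 14 genes of radial spokes and central apparatus, −0.80 for the 14 assembly or docking factors, −0.64 for the 6 intermediate or light chains and −0.65 for the 5 transcription factors. Single genes of these parts overlapped widely, and the parts were not tested against each other. Foxj1, the master regulator of motile ciliogenesis, stood in nigra at 19.7, 23.5 and 23.5 CPM in PBS and 27.6, 17.5 and 20.8 CPM in 6-OHDA libraries. In striatum it stood at 8.45, 7.98 and 11.9 CPM in PBS and 17.9, 16.9 and 18.9 CPM in 6-OHDA libraries. The nigral groups overlapped and the striatal groups did not. Its difference was −0.94 (SE 0.253) and did not pass (edgeR adjusted p = 0.133). Hydin, of the central apparatus and also named after its value was seen, had a difference of −3.05 and missed the threshold (edgeR adjusted p = 0.0559), as did the tektin gene Tekt1 at −1.81 (edgeR adjusted p = 0.0552).

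The other 7 called genes with the lower change in nigra include several tied to cilia that the list did not hold. Daw1, an assembly factor of outer dynein arms (gene 71227, chromosome 1, 83159742 to 83210577), stood in nigra at 1.36, 1.41 and 1.54 CPM in PBS and 1.04, 0.553 and 0.565 CPM in 6-OHDA libraries. The striatal levels were 0.255, 0.26 and 0.202 CPM in PBS and 1.10, 1.22 and 1.84 CPM in 6-OHDA libraries. Groups separated in both tissues, and the striatal groups lay farther apart. The difference was −3.54 (SE 0.6, edgeR adjusted p = 0.0288). Drc7, of the nexin-dynein regulatory complex, differed by −3.36 (edgeR adjusted p = 0.0493), and striatal 6-OHDA library 2 stood at 8.85 CPM against 2.15 and 3.45 CPM in the other striatal 6-OHDA libraries. Without that library the difference for Drc7 was −2.57. Capsl, a calcyphosine-like protein, differed by −3.42 (edgeR adjusted p = 0.0139) and the kinase Nek5 by −3.41 (edgeR adjusted p = 0.0493). Eno4, an enolase of the sperm tail in mice, differed by −1.32, and Rassf9, a Ras association domain protein, by −1.94, each with an adjusted p of 0.0493 by edgeR. Tenm3, a teneurin that guides neuronal wiring and the only abundant gene of the lower group, stood in nigra at 145.9, 149.8 and 126.3 CPM in PBS and 106.1, 103.3 and 88.0 CPM in 6-OHDA libraries. Its levels in striatum were 126.7, 127.7 and 122.4 CPM in PBS and 147.5, 134.3 and 154.2 CPM in 6-OHDA libraries. Its groups separated in both tissues, with the nigral separation wider, and the difference was −0.71 (SE 0.133, edgeR adjusted p = 0.0493).

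Motifs of factors known to act on cilium genes were searched in the same promoter windows. The X-box bound by RFX factors, searched on both strands as GT, any 2 bases, CCATGG, any base and AAC, was present in 2 of 63 motile cilium promoters (3.17%) and 0.456% of all promoters. A looser form, with any 2 bases in the place of the central AT, which contains every match of the former, was present in 7 of 63 (11.1%) and 1.93% of all. The forkhead motif GTAAACA, on either strand, was present in 4 of 63 (6.35%) and 3.31% of all. Among the 12 called genes of the lower group, 10 had a promoter, and 1 of these, Daw1, held an X-box. The promoter of Dnah11 (minus strand, chr12:118198994-118199293), the cilium gene with the smallest p, and the first of 2 RefSeq promoters of Daw1 (plus strand, chr1:83159505-83159804), chosen afterwards because it holds motifs, are shown 5′ to 3′ with motifs in capitals.
Dnah11: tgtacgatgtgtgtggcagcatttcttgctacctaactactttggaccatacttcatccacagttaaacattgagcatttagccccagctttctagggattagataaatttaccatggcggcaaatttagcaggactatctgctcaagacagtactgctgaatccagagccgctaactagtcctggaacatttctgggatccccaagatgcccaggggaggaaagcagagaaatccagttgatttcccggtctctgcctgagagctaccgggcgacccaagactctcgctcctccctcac
Daw1: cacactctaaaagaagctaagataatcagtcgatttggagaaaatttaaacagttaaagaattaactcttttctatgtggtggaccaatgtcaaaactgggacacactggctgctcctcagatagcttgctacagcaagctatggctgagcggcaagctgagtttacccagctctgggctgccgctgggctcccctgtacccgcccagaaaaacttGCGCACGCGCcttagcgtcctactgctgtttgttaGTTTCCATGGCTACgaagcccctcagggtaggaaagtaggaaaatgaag
In Daw1 the first run of capitals is an NRF1 match, from base −34 to base −25, and the second is the X-box on the opposite strand, from base 2 to base 15. The Dnah11 window holds none of the searched motifs.

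Markers of neighbouring cell types were read beside the cilium genes, because a bulk sample cannot tell fewer cells of a type from less RNA per cell. Summed motile cilium levels were 552.8 to 620.2 CPM in nigral PBS and 379.2 to 521.1 CPM in nigral 6-OHDA libraries, and 400.8 to 481.2 CPM in striatal PBS and 558.1 to 642.3 CPM in striatal 6-OHDA libraries. The groups did not overlap in either tissue. On the list level, the mean of log2 CPM against PBS, nigral 6-OHDA library 2 stood at −0.17 and libraries 3 and 4 at −0.93 and −0.83, while the striatal 6-OHDA libraries stood at 1.03, 0.82 and 1.11. Without nigral 6-OHDA 2 the count of called cilium genes was 22, beside 96 of all 18805 genes, 67 of them below 0. The count was 0 when PBS 1, PBS 2 or 6-OHDA 4 was left out of both tissues, where 0 of all genes were called.

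Choroid plexus markers, of which 6 of 11 were tested, stood apart in a single library. Striatal 6-OHDA library 2 summed to 1778 CPM, against 28.8 and 39.5 CPM in the other striatal 6-OHDA libraries and 27.5 to 178.6 CPM in striatal PBS. Their median difference was −1.80, and 0.08 without that library. The median of the motile cilium list was −1.65 with that library and −1.61 without it. Folr1, Kcne2, Slc4a5, Sostdc1 and Kcnj13 were not listed in both tables.

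Thalamic markers, a sign of tissue next to the midbrain dissection, had a nigral change below 0 in 11 of 11 genes, with a median of −0.62. They summed to 1166 to 1688 CPM in nigral PBS and to 815.2, 1312 and 799.5 CPM in nigral 6-OHDA libraries 2, 3 and 4. Nigral 6-OHDA library 4 was low for both thalamic markers and cilium genes, library 2 was low for thalamic markers and nearer PBS for cilium genes, and library 3 was low for cilium genes and within the PBS range for thalamic markers. Neuroblast and proliferation markers had a difference below 0 in 11 of 12 tested genes, with a median of −0.72 and a median striatal change of 0.55. Mki67, a proliferation marker, stood in striatum at 1.71, 3.77 and 1.76 CPM in PBS and 10.99, 5.80 and 6.54 CPM in 6-OHDA libraries, and its difference of −2.14 did not pass (edgeR adjusted p = 0.151). By edgeR 0 genes of the choroid plexus, thalamus and neuroblast lists passed. At an unadjusted p under 0.05 there were 2, 0 and 8, beside 12.2% of all genes. The part of choroid plexus, thalamic or neurogenic tissue in the cilium result beyond these values was not tested.

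**Figure D4:**
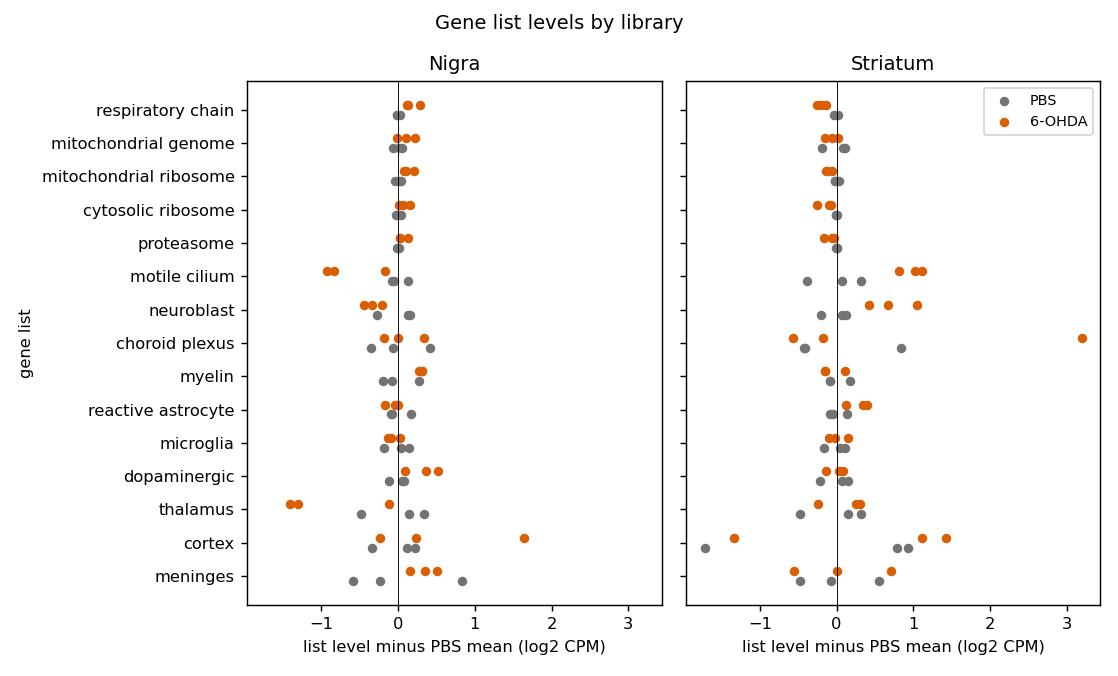
Level of 15 gene lists in each library, as the mean log2 CPM of the tested members minus the PBS mean of the tissue (x axis), for nigra on the left and striatum on the right, with PBS in grey and 6-OHDA in orange. The motile cilium list lies below PBS in nigra and above it in striatum. The respiratory chain, mitochondrial ribosome and proteasome lists lie above PBS in nigra and below it in striatum. Choroid plexus stands apart in 1 striatal library, and cortex and meninges spread widely within groups.

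The myelin, reactive astrocyte, microglial, inflammasome and dopaminergic lists held 0 called genes by edgeR. Their counts at an unadjusted p under 0.05 stand beside 12.2% of all genes tested. Myelin genes had a difference above 0 in 18 of 18, with a median of 0.28 and a nigral median of 0.25, and 3 had an unadjusted p under 0.05. Ppp1r14a, a phosphatase inhibitor found in oligodendrocytes, was the nearest to the threshold with 1.12 (edgeR adjusted p = 0.0826). Reactive astrocyte genes had a median of −0.35 over 17, with 4 at an unadjusted p under 0.05. Among them complement C4b had a difference of −0.75 (edgeR adjusted p = 0.0846) and Vim, the intermediate filament vimentin, −0.73 (edgeR adjusted p = 0.096). Gfap had −0.41 (edgeR adjusted p = 0.716). Microglial genes had a median of −0.09 over 17, and 1 had an unadjusted p under 0.05. Aif1, the microglial marker Iba1, had −0.18 (edgeR adjusted p = 0.859).

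The inflammasome, the protein assembly that activates caspase-1, gave a median of −0.21 over 8 tested genes with 0 at an unadjusted p under 0.05. Nlrp3, its sensor, had a difference of −0.63 (SE 0.374, edgeR adjusted p = 0.533), with means of 0.823 ± 0.0746 CPM in nigral PBS, 0.534 ± 0.155 in nigral 6-OHDA, 0.99 ± 0.118 in striatal PBS and 1.00 ± 0.172 in striatal 6-OHDA libraries (mean ± SD, n = 3 each). Pycard, its adaptor, had −0.60 and Casp1, its protease, 0.18, with adjusted p-values of 0.565 and 0.925 by edgeR.

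Dopaminergic genes had a difference above 0 in 12 of 15 tested, with a median of 0.39. An unadjusted p under 0.05 was found for 5, of which 4 were above 0 and 1 below 0. Th differed by 0.59 (edgeR adjusted p = 0.425), Ddc by 0.80 (edgeR adjusted p = 0.523) and Slc18a2 by 0.30 (edgeR adjusted p = 0.928). Slc18a2 stood in nigra at 53.9, 39.4 and 47.0 CPM in PBS and 101.5, 46.2 and 104.7 CPM in 6-OHDA libraries, with library 3 within the PBS range.

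The other genes chosen for description include Agt and Megf9, neither of which passed the test of the difference between tissues in the main fit. Agt, angiotensinogen, made mainly by astrocytes in the brain, stood in striatum at 28.0, 16.8 and 8.72 CPM in PBS and 4.89, 4.90 and 4.39 CPM in 6-OHDA libraries. In nigra it stood at 244.5, 233.1 and 192.1 CPM in PBS and 183.7, 163.3 and 171.8 CPM in 6-OHDA libraries. The groups did not overlap in either tissue. The change was −1.92 in striatum (edgeR adjusted p = 0.0301) and −0.37 in nigra (edgeR adjusted p = 0.578), and the difference was 1.55 (edgeR adjusted p = 0.0859). Megf9, a transmembrane protein with EGF-like domains, stood in nigra at 59.7, 58.0 and 55.3 CPM in PBS and 37.1, 37.8 and 33.8 CPM in 6-OHDA libraries. In striatum its groups overlapped, at 30.7, 28.5 and 30.7 CPM in PBS and 26.2, 25.5 and 33.0 CPM in 6-OHDA libraries, and its difference was −0.59 (edgeR adjusted p = 0.0886). Its nigral change of −0.67 did not pass either (edgeR adjusted p = 0.077). The authors' deposited test of nigra gives Megf9 a fold of −1.59 with an adjusted p of 2.7e-17. Agt passed in both tissues in their table, with a fold of −3.78 in striatum and −1.29 in nigra. Under 12 other processing settings, the difference between tissues passed in 1 for Agt and in 1 for Megf9. With libraries left out it passed in 2 of 18 fits for Agt and 0 of 18 for Megf9. Haemoglobin genes, a sign of blood left in the tissue, had a change below 0 in both tissues in 4 of 4 genes, with a median of −1.74 in nigra and −1.72 in striatum. None of the 4 passed by edgeR, with adjusted p-values of 0.403 to 0.525 in nigra and 0.525 to 0.623 in striatum. In striatum the groups overlapped for all 4, and in nigra for Hba-a2.

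Short and long genes differed in their change in both tissues. A transcript length was implied for each gene by its count and FPKM. Implied lengths can exceed true ones. The mitochondrial genes ND3 (bases 9459 to 9806) and COX3 (8607 to 9390) had 396.1 and 892.3 implied bases. Lengths in bases are therefore read as a relative scale. Across genes, Spearman's rho of the change with the implied length was −0.354 in nigra and 0.166 in striatum. In single libraries the rho of the deviation from the PBS mean was −0.27, −0.23 and −0.38 in nigral 6-OHDA libraries, 0.096, 0.021 and 0.22 in striatal 6-OHDA libraries and −0.048 to 0.062 in PBS libraries. Genes were split into 10 bins of equal size by length. In the bin of the shortest genes, up to 1161 bases, the median change was 0.12 in nigra and −0.10 in striatum, and 52.0% of 1876 genes were higher in nigra and lower in striatum. In the bin of the longest genes this was 7.79% of 1874 genes. The called genes of the upper group had a median implied length of 817.6 bases, those of the lower group 3941 bases, and all genes 3367 bases.

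**Figure D5:**
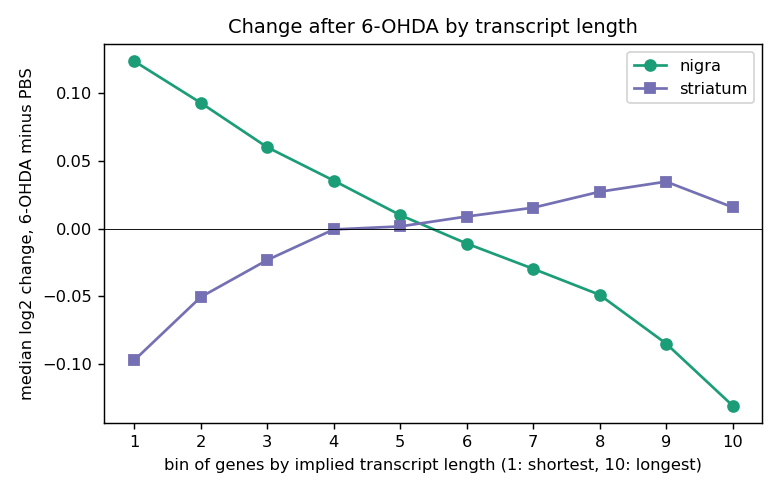
Median log2 change after 6-OHDA (y axis) in 10 bins of the tested genes ordered by implied transcript length (x axis, shortest first), for nigra (circles) and striatum (squares). The nigral median goes from 0.12 in the shortest bin to −0.13 in the longest, and the striatal median from −0.10 to 0.02.

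With the trend removed within each library, 9 genes passed, all of them among the 29. They were Cox5b (0.60), Ier5l (1.14), Ccdc85b (0.96) and Gm6548 (3.75) with the higher change in nigra, and Dnah11 (−2.79), Daw1 (−3.63), Capsl (−3.62), Vwa3a (−2.20) and Maats1 (−3.28) with the lower one. For Cox5a the difference was then 0.45 (edgeR adjusted p = 0.114). In the respiratory chain list the difference was then above 0 in 72 of 77 genes with a median of 0.14 and 1 called. The nigral change was above 0 in 59 of the 77, with a median of 0.05 in place of 0.18, and the striatal change was below 0 in 68, with a median of −0.10 in place of −0.18. Cytosolic ribosomal protein genes, which are short, had a difference above 0 in 47 of 47 with a median of 0.20 before and in 26 of 47 with a median of 0.01 after. Proteasome genes went from 30 of 30 to 20 of 30 above 0. The motile cilium list, whose members are of about average length, kept 74 of 76 below 0 with a median of −1.62 and 3 called. Whether the trend with length belongs to the treatment or to the RNA and libraries cannot be told apart here.

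In the authors' deposited table, which tests each tissue by itself, 427 of the shared genes passed in nigra, 168 in striatum and 22 in both (adjusted p under 0.05). Of the 22, the deposited fold changes were opposite for 17 and in the same direction for 5. Of the 29 genes above, 18 passed in nigra, 26 in striatum and 16 in both in the authors' deposited table. These counts stand beside the 427, 168 and 22 of all 19401 shared genes. For 4 of the 29, Capsl, Daw1, Nrtn and Nek5, the deposited table gives no adjusted p in nigra. The deposited tests use the libraries from which the 29 were chosen, so these counts are not independent support. For Maats1 the authors' deposited table gives a fold of −2.33 in nigra and 4.18 in striatum, and for Cox5b 1.28 and −1.44.

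The libraries labelled 6-OHDA plus TUG469 were set beside these values. They share the PBS libraries, so the values are listed and not compared. Their difference between tissues against PBS was 0.50 for Cox5a, 0.65 for Cox5b, −2.08 for Dnah11, −2.08 for Maats1, −1.77 for Vwa3a, 1.40 for Nrtn and 0.48 for Gm6548.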

How the data were processed

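RNA was measured in stranded poly(A)-selected libraries, per the labels' protocols. The tools STAR 2.7.3a, Cufflinks, Trim Galore 0.38 and FastQC 0.11.7 and the build GRCm38 are named, with no order, per the submitters' processing notes. The sources used here do not give the strand setting of the counting, and 9 of the 29 called genes overlap another gene of the RefSeq table (GRCm38.p6). The authors deposited whole-number read counts, FPKM values, log2 normalized values and, for each pair of groups, signed fold changes with p-values, per the file headers. The tables list only genes with reads in each library of a tissue.

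Counts of genes in both tables were joined on their gene identifiers, filtered with filterByExpr (minimum count 10, minimum total 15), scaled by TMM and fitted in edgeR 4.0.16 (R 4.3.3) with 6 group means over 18 libraries and no block. The contrast was the 6-OHDA minus PBS change in nigra minus that in striatum, with Benjamini-Hochberg adjustment over 18749 genes and a threshold of 0.05. The common biological coefficient of variation was 0.142 with 12 residual degrees of freedom. CPM values use the same factors. The highest correlation between libraries was 0.993, and no 2 columns were identical. Alternatives used DESeq2 1.42.0, limma 3.58.1, other factors and filters, a replicate block, left-out libraries and removal of the length trend (lowess, span 0.3). The fit was also run on simulated counts, drawn independently for each library with the fitted spread. These held no length trend and no link between libraries of the same number, so that run does not bear on either feature. The members, the 24 gene lists and the tests were chosen with earlier results of these data known. Named genes are every called gene, up to 4 members per list, 12 chosen genes and the 5 next in p. Il1b and Slc6a3 were not listed in both tables. TPM values were not used.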

Additional observations from a re-analysis of the deposited data

Results flagged for a closer look

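For 29 genes the change after 6-OHDA in nigra differed from that in striatum by the test of that difference itself (edgeR quasi-likelihood test, adjusted p under 0.05). Values are log2 change in nigra minus log2 change in striatum. They were above 0 for 17 genes: Cox5a 0.70, Cox5b 0.88, Gm6548 3.79, Ndufc2 0.52, Ier5l 1.24, Mrps24 0.92, Ccdc85b 0.88, Atp5j 0.53, Trir 0.76, Nrtn 2.46, Cox7c 0.49, Atp5g3 0.54, Ndufab1 0.66, Cox8a 0.62, Mrpl12 0.54, Ndufs6 0.51 and Gm1673 1.47. They were below 0 for 12 genes: Dnah11 −2.99, Capsl −3.42, Maats1 −3.29, Vwa3a −2.27, Cfap54 −1.64, Daw1 −3.54, Dnah5 −2.01, Rassf9 −1.94, Nek5 −3.41, Tenm3 −0.71, Drc7 −3.36 and Eno4 −1.32. With 3 libraries in each group, no test for a single library far from its group was run.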

How the results depend on the processing

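The sign of the difference held for all 29 genes under every alternative run, while the number past the threshold did not. Every alternative reused libraries from which the 29 were chosen, so the kept sign is not independent support. The count of genes, with the count of opposite genes where it differs, was 18 with no filter on low counts, 337 (332 opposite) by DESeq2, 87 by limma voom with sample weights, 11 by limma on log2(FPKM + 1), 14 by limma on log2(FPKM + 0.1), 19 with the 12 compared libraries alone, and 9 with the length trend removed. It stayed within 1.5 times of 29 with other scaling factors (30 and 22) and with a minimum count of 50 (31). Leaving out libraries gave 0 to 96 genes (0 to 95 opposite). The labels do not say that libraries of the same number come from 1 mouse, and of 9 same-numbered pairs of nigral and striatal libraries 6 had deviations correlated above 0.1 (r −0.02 to 0.31) and 8 correlated best with their own number. With the replicate block the count was 66 (20 above and 46 below 0), of which 23 were among the 29. The 6 not called with it were Cox8a, Cox7c, Atp5g3, Ndufab1, Ndufs6 and Mrpl12. With the block and the length trend removed it was 8, with 0 above and 8 below 0. The cause of these shifts was not tested.

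Called respiratory chain members numbered 32 by DESeq2, 2 by limma on FPKM with either pseudocount, 3 with 12 libraries, 4 with the replicate block, 1 with the length trend removed, 0 with both (edgeR) and 0 to 14 with libraries left out. Their median was 0.30 on either FPKM scale, 0.14 with the length trend removed, with or without the block, and 0.26 to 0.42 with libraries left out. Called cilium members numbered 43 by DESeq2, 8 by voom, 18 with the block, 3 with the length trend removed, 2 with both and 0 to 22 with libraries left out. Their median was −0.59 on log2(FPKM + 1), a scale that compresses low values, and −1.93 to −1.47 with libraries left out. For Slc18a2 the value turned negative without PBS 2 (−0.02) or 6-OHDA 2 (−0.042) in both tissues, with a range of −0.042 to 0.84 over the libraries left out. The SE was 0.374 for Nlrp3, a gene of few counts, and 0.0878 for Cox5a, one of many.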

Other observations

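The remaining gene lists held 0 called genes by edgeR. Their counts at an unadjusted p under 0.05 stand beside 12.2% of all genes tested. Of the 13 glucocorticoid response genes, 10 had a change below 0 in nigra and 12 in striatum, with a median change of −0.18 in nigra and −0.34 in striatum and a median difference of 0.16, and 0 had an unadjusted p under 0.05. Immediate early genes, which report recent neuronal activity, had a median difference of −0.03 over 12 genes, with 1 at an unadjusted p under 0.05. Junb among them had 0.71 (edgeR adjusted p = 0.179). Striatal projection neuron genes had a median of −0.20 over 15 genes, with 0 at an unadjusted p under 0.05. The list named for nigral GABA neurons summed to 1513 to 1822 CPM in striatal PBS and 987.8 to 1150 CPM in nigral PBS libraries. It thus does not mark nigra alone. Its median was 0.29 over 8 genes with 1 at an unadjusted p under 0.05. That gene was Pvalb, the calcium-binding protein parvalbumin, with 1.496 (edgeR adjusted p = 0.0853). It stood in striatum at 14.8, 11.8 and 10.0 CPM in PBS and 6.02, 6.71 and 4.27 CPM in 6-OHDA libraries, and in nigra at 47.6, 62.8 and 56.6 CPM in PBS and 63.6, 73.5 and 81.3 CPM in 6-OHDA libraries. The groups did not overlap in either tissue.

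Markers of adjacent tissue varied within groups. Cortical genes had a median of 0.75 over 10 genes with 1 at an unadjusted p under 0.05, and summed to 219.1 to 436.1 CPM in nigral and 197.5 to 871.4 CPM in striatal 6-OHDA libraries, ranges that overlap those in PBS (262.1 to 335.2 and 179.6 to 617.7 CPM). Without nigral 6-OHDA 3 the cortical median was −0.40. Meningeal genes had a median of 0.37 over 12 genes with 1 at an unadjusted p under 0.05, and it ran from −0.45 without PBS 3 to 1.03 without PBS 2 in both tissues. Endothelial and mural genes had 0.21 over 16 genes, homeostatic astrocyte genes 0.03 over 15 and oligodendrocyte precursor genes −0.01 over 12. At an unadjusted p under 0.05 there were 2, 4 and 1, beside 12.2% of all genes. Of the 4 homeostatic astrocyte genes, 2 were above 0 and 2 below 0. Metrn, meteorin, a secreted protein of glial progenitors, was the gene closest to the threshold without passing it, with 0.75 (edgeR adjusted p = 0.0515). Uqcrfs1 followed with an adjusted p of 0.0536 by edgeR, and then Tekt1, Fhad1 and Rpl38, each with 0.0552.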
